A study of Arabidopsis thaliana with 36 samples.

Results

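The genes described here are the plasma and organelle membrane transporters with numbered family names that could be measured in polysome fractions of *Arabidopsis thaliana* seedlings. They were chosen by name: a probe set belonged if its annotation gave a single gene whose symbol was that of an ABC transporter (ABCA to ABCI with a number) or NRT, AMT, SULTR, PHT, KUP, CAX, HMA, ZIP, YSL, SWEET, OPT, PUP or UPS followed by a digit. In the annotation used here 18 probe sets met this naming rule, of which 14 were SWEET genes, 2 ZIP genes, 1 an NRT gene and 1 a PUP gene. No probe set carried an ABC symbol alone, so ABC transporters are not analysed here and the set is called the SWEET and ZIP transporter genes below. A value of 5 or more on at least 3 of the 36 arrays was also required, and 4 genes met it: SWEET11 (AT3G48740), SWEET16 (AT3G16690), SWEET17 (AT4G15920) and ZIP6 (AT2G30080). They are 4 of the 6800 genes with a symbol of their own that passed this filter.

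SWEET proteins are membrane facilitators that let sugars move down their concentration gradient. SWEET11 sits in the plasma membrane of phloem parenchyma cells of leaves, where it releases sucrose for loading into the phloem together with SWEET12, which is not analysed here. SWEET16 and SWEET17 sit in the tonoplast and exchange sugars between vacuole and cytosol, and SWEET17 is known for carrying fructose. ZIP6 belongs to the ZRT/IRT-like family, whose members carry zinc, iron and other divalent metals.

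The plants carried the CCA1-ox transgene, which overexpresses the clock transcription factor CCA1, in the Columbia background, and every sample shares this genotype. The promoter of the transgene is not given in the sources used here, and wild-type plants were not analysed here. Aerial parts were taken from plants grown for 10 days on agar with Murashige and Skoog salts and 1% sucrose, with 16 h light and 8 h dark per day. Harvests were at 6am, when the lights came on (Zeitgeber time 0 h), at 12pm (6 h), at 6pm (12 h) and at 12am (18 h, in darkness). At each time RNA was divided on a gradient into large polysomal, small polysomal and non-polysomal RNA, with 3 replicates of each of the 12 groups and 1 Affymetrix array per sample. Polysomal mRNAs carry ribosomes and more of them on large than on small polysomes, so the split of a transcript over the fractions describes its association with ribosomes. The labels do not say whether replicates were separate plantings, so the p-values reflect variation among these samples only, and it may be technical.

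Each value is the log2 expression of a probe set, scaled by the authors so that arrays can be compared. Below, level means the average over the 3 fractions, and loading means the large polysomal value less the non-polysomal one of the same time and replicate number. The main fit treats fractions of a time and replicate number as independent samples, although they deviated together. Its p-values are therefore too small for levels and too large for loadings, for the 4 genes and for all probe sets alike. Values of different genes come from different probes and were not compared as levels. Replicates of a group correlated at r = 0.961 to 0.996 over all probe sets. The leaf markers LHCB4.2, an antenna protein of photosystem II, and RCA, Rubisco activase, were high at every time, with mean levels of 13.16 and 12.80 at 6am, where both were lowest. The other 4 of 6 leaf markers are not analysed here, nor are both phloem companion cell markers. Of 7 root markers 3 were named, and the hair-cell expansins EXPA7 and EXPA18 lay at the lower end of the scale at 2.15, whereas PYK10, a beta-glucosidase abundant in roots, had mean levels of 11.01, 11.53, 12.19 and 11.85 at 6am, 12pm, 6pm and 12am. Of the 6 markers of stomata 3 were named, with SPCH and MUTE near the lower end of the scale, while FMA had mean levels of 7.13, 6.17, 6.42 and 6.45 at these times. LHCB4.2, RCA, PYK10 and FMA all moved with time of day, as did 86.6% of all probe sets (limma F test, adjusted p under 0.05). The log2 ranges of their levels were 0.94, 1.07, 1.17 and 0.96, in that order. The part of these markers in the results below was not tested. In such mixed tissue, fewer cells of a type and less RNA per cell cannot be told apart.

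SWEET17 changed most over the day among the 4 genes. It was lowest at 6am in every fraction and highest at 6pm, when its level was 4.74-fold that of 6am. At 6am its values were 5.83, 6.10 and 6.04 on large polysomes, 6.24, 6.35 and 5.91 on small polysomes and 6.62, 6.95 and 6.06 in non-polysomal RNA. At 6pm they were 8.10, 7.67 and 7.79 on large polysomes, 8.29, 8.46 and 8.77 on small polysomes and 8.99, 9.37 and 8.84 in non-polysomal RNA. These groups lie far apart, and the lowest 6pm value is above the highest 6am value in each fraction. The midday values were 7.01, 8.03 and 7.65 on large polysomes, 7.19, 7.83 and 8.06 on small polysomes and 8.18, 8.61 and 8.48 in non-polysomal RNA. At 12am the values were 6.93, 7.56 and 6.74 on large polysomes, 7.67, 7.67 and 7.03 on small polysomes and 8.22, 7.89 and 7.67 in non-polysomal RNA. In all 3 fractions the 6am replicates lay below every replicate of the other times without overlap, which held for 3.26% of all probe sets tested.

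The SWEET17 level averaged 6.23 ± 0.23 at 6am, 7.89 ± 0.38 at 12pm, 8.48 ± 0.02 at 6pm and 7.49 ± 0.30 at 12am (SD, n = 3 replicates each). Levels of all 4 genes differed over the 4 times in limma's moderated F test, as did 86.6% of all probe sets, so this count is near the background. The range of the SWEET17 level, 2.25 on the log2 scale (limma, adjusted p = 3.3e-13), was above that of 95.7% of probe sets, whereas the median range of all probe sets was 0.71. At 6pm SWEET17 was higher than at 6am by 2.25 ± 0.15 (± SE, limma, adjusted p = 7.1e-14), and 69% of probe sets were called in this comparison. It rose by 1.66 ± 0.15 at 12pm relative to 6am (limma, adjusted p = 6.4e-11). The further difference of 6pm from 12pm, 0.59 ± 0.15 (limma, adjusted p = 0.0047), was not called when the 3 fractions were averaged first (adjusted p = 0.085) or without replicate 1 (0.38, adjusted p = 0.12). At 12am SWEET17 fell by 0.99 ± 0.15 relative to 6pm (limma, adjusted p = 1.7e-06), and at 6am it fell by 1.25 ± 0.15 relative to 12am (limma, adjusted p = 7.6e-08). In the order of its levels 12am and 12pm were neighbours: their difference of -0.40 ± 0.15 (limma, adjusted p = 0.022, with 60.9% of probe sets called) was not called with the replicates of a time as a random block (adjusted p = 0.083) and ran from -0.68 to -0.15 on leaving out a replicate or an array (adjusted p = 0.50 without replicate 3), so these 2 times were not separated beyond the spread between replicates.

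**Figure D1:**
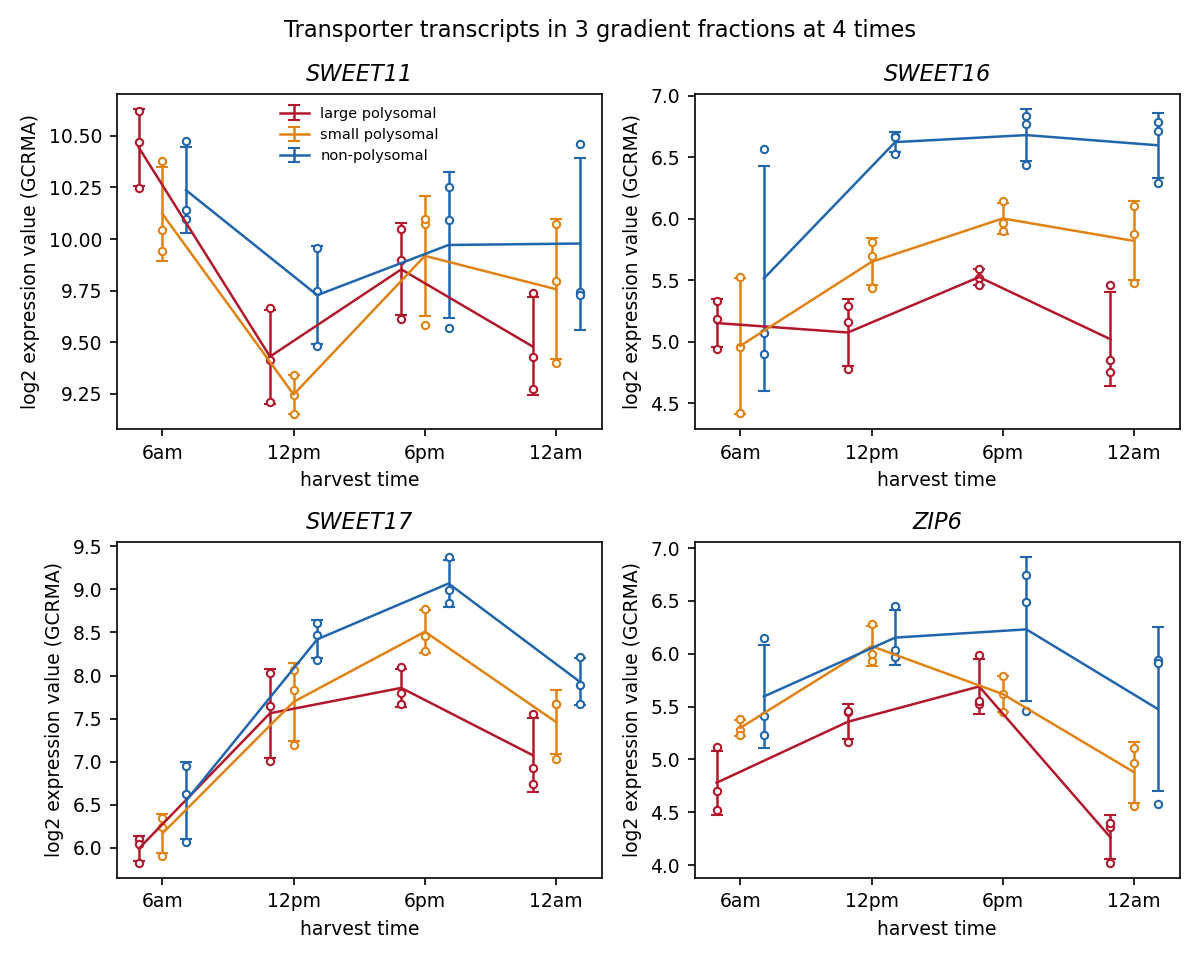
Log2 expression value (vertical axis) of SWEET11, SWEET16, SWEET17 and ZIP6 at 4 harvest times (horizontal axis) on large polysomes, on small polysomes and in non-polysomal RNA. Open circles are replicates, lines join group means and bars are the SD of 3 replicates. SWEET17 is lowest at 6am in all fractions, and SWEET11 is highest at 6am. Values are drawn as deposited, and averaged over the times large polysomal values lie below non-polysomal ones for all 4 genes (not called for SWEET11). With arrays shifted to equal spike-in signal, which is not drawn, they lie above them on average for all 4 genes.

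SWEET16, the other tonoplast carrier, also had its lowest level at 6am and its highest at 6pm, with a smaller range and less even replicates at 6am. At 6am its values were 5.33, 5.19 and 4.94 on large polysomes, 5.53, 4.96 and 4.42 on small polysomes and 6.57, 5.07 and 4.90 in non-polysomal RNA. One non-polysomal array, that of replicate 1, stands well above the other two. At 12pm the values were 5.29, 5.16 and 4.78 on large polysomes, 5.44, 5.70 and 5.81 on small polysomes and 6.53, 6.68 and 6.67 in non-polysomal RNA. The 6pm values were 5.59, 5.52 and 5.46 on large polysomes, 5.90, 5.97 and 6.14 on small polysomes and 6.44, 6.84 and 6.77 in non-polysomal RNA. The values of 12am were 5.46, 4.75 and 4.85 on large polysomes, 6.11, 5.88 and 5.48 on small polysomes and 6.79, 6.30 and 6.72 in non-polysomal RNA. At these 3 times the large polysomal replicates all lay below the small polysomal ones, and those below the non-polysomal ones. At 12am the highest large polysomal value, 5.460, was only just under the lowest small polysomal one, 5.475. The share of all probe sets with this order was not determined. For 26.1% of them, large polysomal replicates lay below non-polysomal ones without overlap at 3 or more times.

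The SWEET16 level averaged 5.21 ± 0.54 at 6am, 5.78 ± 0.05 at 12pm, 6.07 ± 0.08 at 6pm and 5.81 ± 0.26 at 12am (SD, n = 3 replicates each). It rose by 0.86 ± 0.17 at 6pm relative to 6am (limma, adjusted p = 4.1e-05) and by 0.57 ± 0.17 at 12pm relative to 6am (limma, adjusted p = 0.0034). The differences of 6pm from 12pm, 0.29 ± 0.17 (limma, adjusted p = 0.19), and of 12am from 6pm, -0.26 ± 0.17 (limma, adjusted p = 0.19), were not called. Without replicate 1 the difference of 12am from 6pm was called at -0.46 (adjusted p = 0.0029), and that of 6pm from 12pm was called when only the arrays of those times were fitted (adjusted p = 0.021). At 6am the level fell by 0.60 ± 0.17 relative to 12am (limma, adjusted p = 0.0036), and with fractions averaged first the call was lost at adjusted p = 0.050. The calls of 12pm against 6am and of 6am against 12am were lost without replicate 2 (adjusted p = 0.12 and 0.069) and without replicate 3 (adjusted p = 0.13 and 0.087). Over the 4 times the level ranged by 0.86 (limma F test, adjusted p = 0.00025), but without replicate 3 the range of 0.60 was not called (adjusted p = 0.060). Group means ranged by 0.51 in the large polysomal fraction, which was not called when tested alone (adjusted p = 0.37), by 1.04 in the small polysomal fraction and by 1.17 in non-polysomal RNA. The test of whether large polysomal and non-polysomal values changed differently over the times, that of loading, gave adjusted p = 0.095 in limma.

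SWEET11, the plasma membrane sucrose exporter, ran the other way, with its highest level at 6am and its lowest at 12pm. At 6am its values were 10.25, 10.62 and 10.47 on large polysomes, 10.38, 9.94 and 10.04 on small polysomes and 10.10, 10.48 and 10.14 in non-polysomal RNA. At 12pm they were 9.21, 9.41 and 9.67 on large polysomes, 9.15, 9.34 and 9.24 on small polysomes and 9.48, 9.75 and 9.95 in non-polysomal RNA. In each fraction all 6am replicates lay above all 12pm replicates, and the share of all probe sets that did so was not determined. The values of 6pm were 9.61, 10.05 and 9.90 on large polysomes, 9.59, 10.08 and 10.10 on small polysomes and 9.57, 10.25 and 10.09 in non-polysomal RNA. Those of 12am were 9.74, 9.43 and 9.27 on large polysomes, 10.07, 9.80 and 9.40 on small polysomes and 10.46, 9.75 and 9.73 in non-polysomal RNA. The 6pm and 12am replicates overlapped in every fraction and lay between the other two times on average.

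The SWEET11 level averaged 10.27 ± 0.07 at 6am, 9.47 ± 0.17 at 12pm, 9.91 ± 0.29 at 6pm and 9.74 ± 0.32 at 12am (SD, n = 3 replicates each), a range of 0.80 (limma F test, adjusted p = 1.1e-05). At 12pm it fell by 0.80 ± 0.12 relative to 6am (limma, adjusted p = 1.6e-06), a call lost under spike-in scaling (-0.46, adjusted p = 0.27) and in non-polysomal RNA alone (-0.51, adjusted p = 0.053). The rise of 0.45 ± 0.12 at 6pm relative to 12pm (limma, adjusted p = 0.0078) was lost when fractions were averaged first (adjusted p = 0.13) or without replicate 2 (0.36, adjusted p = 0.21). The difference of 12am from 6pm was -0.18 ± 0.12 (limma, adjusted p = 0.23), but without replicate 1 it was -0.52 (adjusted p = 0.00021). At 6am the level rose by 0.53 ± 0.12 relative to 12am (limma, adjusted p = 0.00078), a call lost without replicate 2, where the difference was 0.45 (adjusted p = 0.064). The order of the means from low to high was 12pm, 12am, 6pm and 6am. The difference of 12am from 12pm was 0.27 ± 0.12 (limma, adjusted p = 0.061), and it was called without replicate 3 (0.48, adjusted p = 0.019), with median centring (0.30, adjusted p = 0.037) and on leaving out any 1 of 6 arrays.

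ZIP6, the metal carrier, was higher at both daytime harvests than at both night-side harvests. At 6am its values were 4.70, 5.11 and 4.52 on large polysomes, 5.28, 5.23 and 5.38 on small polysomes and 5.41, 6.15 and 5.23 in non-polysomal RNA. At 12pm they were 5.17, 5.45 and 5.46 on large polysomes, 5.93, 6.28 and 6.00 on small polysomes and 6.04, 6.45 and 5.97 in non-polysomal RNA. On large and on small polysomes the midday replicates all lay above the 6am ones, and in non-polysomal RNA they overlapped. At 6pm ZIP6 gave 5.53, 5.99 and 5.56 on large polysomes, 5.45, 5.62 and 5.79 on small polysomes and 5.46, 6.49 and 6.74 in non-polysomal RNA. At 12am it gave 4.36, 4.40 and 4.02 on large polysomes, 4.56, 4.97 and 5.11 on small polysomes and 5.94, 5.91 and 4.58 in non-polysomal RNA. Its large polysomal replicates were lower at 12am than at any other time without overlap, whereas the non-polysomal ones spread widely. How many of all probe sets were separated in these ways was not determined.

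The ZIP6 level averaged 5.22 ± 0.24 at 6am, 5.86 ± 0.18 at 12pm, 5.85 ± 0.32 at 6pm and 4.87 ± 0.27 at 12am (SD, n = 3 replicates each), a range of 0.99 (limma F test, adjusted p = 4e-06). It rose by 0.64 ± 0.17 at 12pm relative to 6am (limma, adjusted p = 0.0016). The level was not called for this step in the large polysomal fraction alone (0.58, adjusted p = 0.1) or in non-polysomal RNA alone (0.56, adjusted p = 0.12). Between 6pm and 12pm it differed by -0.01 ± 0.17 (limma, adjusted p = 0.96). At 12am it fell by 0.97 ± 0.17 relative to 6pm (limma, adjusted p = 1.2e-05), a call lost in the small polysomal fraction alone (-0.74, adjusted p = 0.051). The difference of 6am from 12am, 0.35 ± 0.17 (limma, adjusted p = 0.086), was not called, but it was without the 12am non-polysomal array of replicate 1 (0.43, adjusted p = 0.042) or of replicate 2 (0.42, adjusted p = 0.045). In the 4 steps between consecutive times, 12pm against 6am, 6pm against 12pm, 12am against 6pm and 6am against 12am, 4, 2, 2 and 3 of the 4 transporter genes were called, against 66.7%, 30.6%, 58.9% and 48.6% of all probe sets.

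To set light against dark, the 12pm and 6pm samples were pooled by their mean, as were those of 12am and 6am. The 6am harvest, when the lights came on, counts as dark here, and light cannot be told apart from time of day. Levels of 3 of the 4 genes were higher in light, as were 36.1% of probe sets, and that of SWEET11 was lower, as were 36.5%. In all, 72.6% of probe sets were called. SWEET17 was 2.51-fold higher in light (log2 difference 1.33 ± 0.11, limma, adjusted p = 2.5e-12), in all 3 replicates, a difference above that of 95.5% of probe sets. ZIP6 was 1.75-fold higher in light (0.80 ± 0.12, limma, adjusted p = 6.1e-07), in all 3 replicates. SWEET16 differed by 0.41 ± 0.12 (limma, adjusted p = 0.0024), in 2 of 3 replicates, and SWEET11 by -0.31 ± 0.09 (limma, adjusted p = 0.0023), in all 3. These 2 smaller differences rested on the 6am harvest: without it SWEET16 differed by 0.11 (adjusted p = 0.31) and SWEET11 by -0.05 (adjusted p = 0.73), while SWEET17 and ZIP6 were called in every subset of arrays tried. The SWEET16 call was also lost without replicate 2 (0.31, adjusted p = 0.13) or replicate 3 (0.26, adjusted p = 0.12), and that of SWEET11 without replicate 1 (-0.10, adjusted p = 0.19). Of the markers, LHCB4.2, RCA and PYK10 were higher in light by 0.50, 0.36 and 0.43, and FMA differed by -0.49.

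Differences between fractions were averaged over the 4 times. SWEET16, SWEET17 and ZIP6 were lower on large polysomes than in non-polysomal RNA, and SWEET11 did not pass the test. In this comparison 80.1% of probe sets were called and 37.8% were lower on large polysomes. SWEET16 was 2.24-fold lower (log2 difference -1.16 ± 0.14, limma, adjusted p = 1.6e-08), in 10 of 12 pairs of samples of the same time and replicate number. SWEET17 was 1.83-fold lower (-0.87 ± 0.13, limma, adjusted p = 6e-07), in 12 of 12 pairs. ZIP6 was 1.79-fold lower (-0.84 ± 0.15, limma, adjusted p = 6e-06), in 11 of 12 pairs. Each of these 3 genes had its large polysomal replicates below its non-polysomal ones without overlap at 3 of the 4 times, and 26.1% of all probe sets did so at 3 or more times. The exceptions were 6am for SWEET16 and SWEET17, and 6pm for ZIP6. Values of SWEET16 and ZIP6 were low, reaching 5 on 29 and 28 of the 36 arrays. Large polysomal values of ZIP6 at 12am were 4.36, 4.40 and 4.02. Low values are compressed, and whether this had a part in the differences of these genes was not tested. SWEET11 differed by -0.18 ± 0.11 (limma, adjusted p = 0.13), lower in 8 of 12 pairs, and it overlapped at every time. With the samples of a time and replicate number as a block, SWEET11 was called too (adjusted p = 0.040 as a random block and 0.023 with fixed terms).

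These differences are relative to the bulk of transcripts, since the deposited values were normalized between arrays. The 12 probe sets of bacterial control RNAs had mean values of 5.96 on large polysomes, 7.55 on small polysomes and 8.61 in non-polysomal RNA. When arrays were shifted to equal control signal, the median of all probe sets lay 2.70 above zero for large polysomal minus non-polysomal, and all 4 genes turned positive, SWEET16 at 1.49, SWEET17 at 1.78, ZIP6 at 1.81 and SWEET11 at 2.47. Relative to the median of all probe sets the differences were -1.22 for SWEET16, -0.92 for SWEET17, -0.90 for ZIP6 and -0.23 for SWEET11. These relative values are the same under either scaling by construction, since the shift moves every probe set of an array alike. Their sameness is therefore no test of the differences. The labels do not say whether control RNAs were added in equal amounts.

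**Figure D2:**
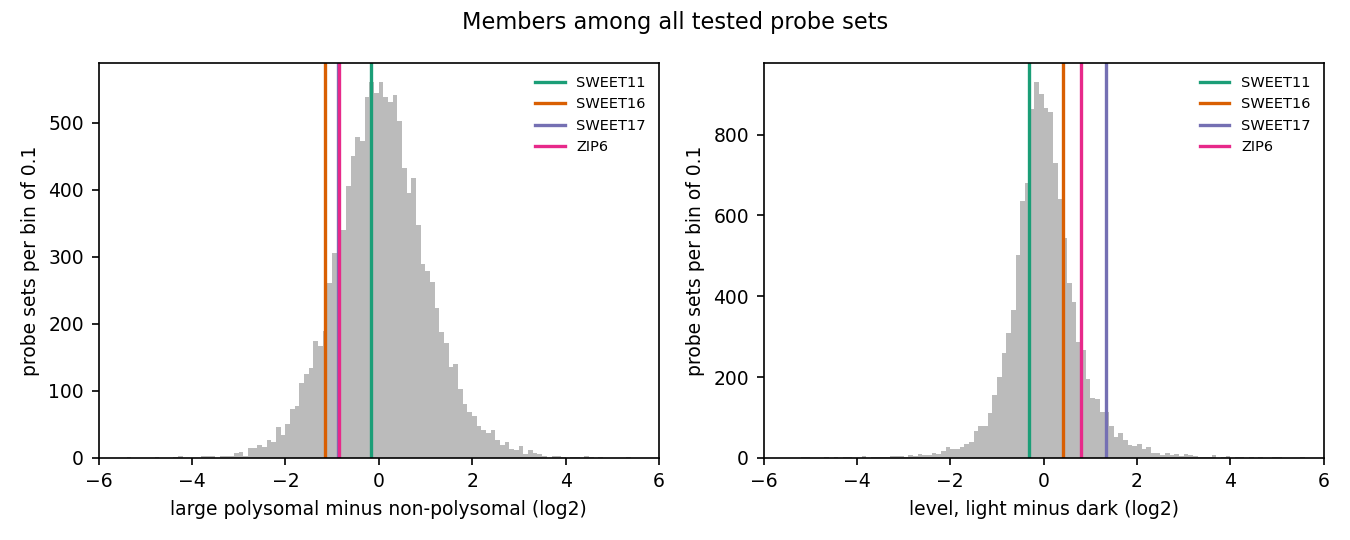
Number of probe sets per bin of 0.1 (vertical axis) against the log2 difference of large polysomal minus non-polysomal RNA (left) and the log2 difference in level of light minus dark (right), for all 12635 probe sets tested, with the 4 transporter genes as vertical lines. SWEET16, SWEET17 and ZIP6 lie left of the centre in the left panel, and SWEET17 lies far right in the right panel. Spike-in scaling is not drawn. It moves the left distribution to the right and all 4 genes above zero there, and it turns SWEET11 to 0.13 for light minus dark.

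Small polysomes lay between the other fractions for the 3 genes. Against non-polysomal RNA, where 68.3% of probe sets were called and 31.6% were lower, SWEET16 differed by -0.74 ± 0.14 (limma, adjusted p = 4.3e-05), SWEET17 by -0.53 ± 0.13 (limma, adjusted p = 0.00073) and ZIP6 by -0.40 ± 0.15 (limma, adjusted p = 0.018). The ZIP6 call was lost without replicate 1 (-0.39, adjusted p = 0.055) or replicate 2 (-0.23, adjusted p = 0.31), and it was lower in 9 of 12 pairs. SWEET11 differed by -0.22 ± 0.11 (limma, adjusted p = 0.073), and it was called with the samples of a time and replicate number as a random block (adjusted p = 0.015). On large against small polysomes, where 55.5% of probe sets were called and 27.7% were lower on large polysomes, SWEET16 differed by -0.42 ± 0.14 (limma, adjusted p = 0.016), ZIP6 by -0.44 ± 0.15 (limma, adjusted p = 0.012), SWEET17 by -0.34 ± 0.13 (limma, adjusted p = 0.031) and SWEET11 by 0.04 ± 0.11 (limma, adjusted p = 0.77). None of these 3 calls held without replicate 3 (adjusted p of 0.072, 0.086 and 0.11), and that of SWEET17 was lost on leaving out any 1 of 11 arrays. The SWEET17 call was also lost without replicate 1 (adjusted p = 0.094) or replicate 2 (adjusted p = 0.07). That of SWEET16 was lost without replicate 2 (adjusted p = 0.16). Without the 12am arrays SWEET16 and SWEET17 were not called (adjusted p = 0.16 and 0.074). The direction of SWEET16, SWEET17 and ZIP6 in both comparisons, and of SWEET11 on small polysomes against non-polysomal RNA, flipped under spike-in scaling.

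Loading over the day was called for 0 of the 4 genes in limma's moderated F test, in which 12.7% of probe sets were called, and 1 gene, SWEET16, had an unadjusted p under 0.05. For SWEET16 the loading was -1.24, 0.12 and 0.04 at 6am, -1.24, -1.51 and -1.89 at 12pm, -0.84, -1.31 and -1.31 at 6pm and -1.32, -1.54 and -1.87 at 12am. A pair of the 6am values lay above all those of the other times, and the remaining one came from the non-polysomal array that stood apart. That pair came from 5.19 and 4.94 on large polysomes against 5.07 and 4.90 in non-polysomal RNA, near the filter value of 5. Whether the compression of low values had a part in these loadings was not tested. Its mean loading ranged by 1.22 (limma F test, adjusted p = 0.095), above the range of 90.6% of probe sets. The test was passed with the samples of a time and replicate number as a block (adjusted p = 0.0086 as a random block and 0.0063 with fixed terms). Under these blocks 4385 and 4499 of the 12635 probe sets were called, against 1599 in the main fit. Without that non-polysomal array the range was 1.74 (adjusted p = 0.0016), and without replicate 1 it was 1.78 (adjusted p = 0.0014).

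SWEET11 had a loading of 0.15, 0.14 and 0.33 at 6am, -0.27, -0.33 and -0.29 at 12pm, 0.04, -0.20 and -0.19 at 6pm and -0.72, -0.32 and -0.46 at 12am. Its 6am values were the only ones all above zero, and its mean loading ranged by 0.71 (limma F test, adjusted p = 0.32, and 0.037 with fixed terms for the samples of a time and replicate number). With those fixed terms 4499 of the 12635 probe sets were called. The SWEET17 loading was -0.79, -0.85 and -0.02 at 6am, -1.17, -0.58 and -0.83 at 12pm, -0.89, -1.70 and -1.05 at 6pm and -1.29, -0.34 and -0.93 at 12am. The 6am and 6pm values did not overlap and those of all other pairs of times did, with a range of 0.66 (limma F test, adjusted p = 0.57). How often loadings of all probe sets were separated in this way was not determined. ZIP6 loading was -0.71, -1.04 and -0.71 at 6am, -0.87, -1.003 and -0.52 at 12pm, 0.07, -0.50 and -1.19 at 6pm and -1.58, -1.51 and -0.55 at 12am. Those values also overlapped, with a range of 0.67 (limma F test, adjusted p = 0.62). Loading in light minus dark was called for 5.47% of probe sets and for 0 of the 4 genes in limma, nor did any reach an unadjusted p under 0.05. The differences were -0.38 ± 0.29 for SWEET16, -0.33 ± 0.26 for SWEET17, -0.06 ± 0.22 for SWEET11 and 0.35 ± 0.29 for ZIP6 (limma, adjusted p of 0.49, 0.51, 0.91 and 0.54). Without replicate 1 SWEET16 was called at -0.69 (adjusted p = 0.033).

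**Figure D3:**
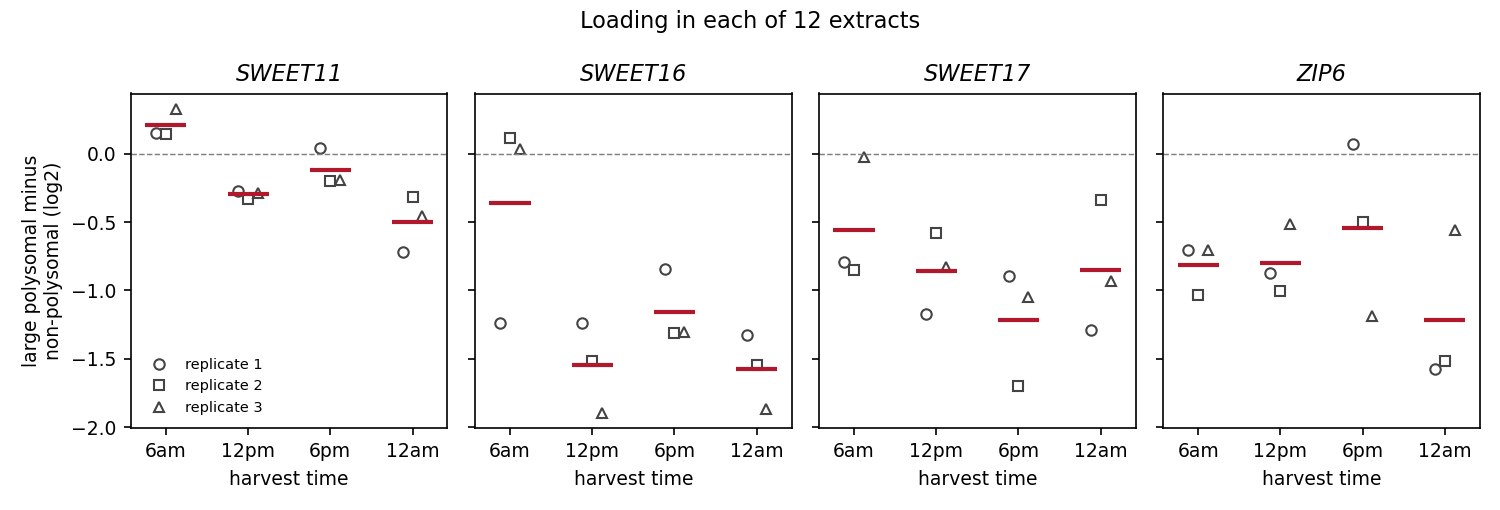
Loading, the log2 value on large polysomes minus that in non-polysomal RNA (vertical axis), at 4 harvest times (horizontal axis) for each pair of samples of the same time and replicate number, with symbols for the replicate number and bars for the mean of 3. SWEET11 lies above zero at 6am, and a pair of SWEET16 points at 6am lies above those of all other times. Values are drawn as deposited, and all 4 genes lie below zero on average over the times. With spike-in scaling, which is not drawn, all 4 genes are above zero on average.

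The other 14 probe sets of the naming rule had no array at 5 or more. They were SWEET1, SWEET2, SWEET3, SWEET4, SWEET6, SWEET7, SWEET8, SWEET9, SWEET10, SWEET13 and SWEET14, together with the zinc-family gene ZIP9, the high-affinity nitrate transporter NRT2.5 and the purine permease PUP15. SWEET1 had the highest single value among them, 3.65, and the rest stayed under 3. At that end of the scale differences are compressed, so no comparison was made for them. A further pair of SWEET genes are listed under another name, SAG29 (SWEET15) and AtVEX1 (SWEET5), and neither passed the filter.

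Among genes that carry a transporter family name only as a synonym, 5 passed the filter, all of the NRT1/PTR family, whose members carry nitrate, peptides, glucosinolates or hormones. All 5 changed in level over the 4 times, against 86.6% of all probe sets, so this count is near the background. In light 4 were higher, against 36.1% of probe sets, and 1 was lower, against 36.5%. GTR1, a glucosinolate transporter, was higher in light by 1.91 ± 0.15 (limma, adjusted p = 7.5e-13), whereas its paralogue GTR2 differed by -0.73 ± 0.14 (limma, adjusted p = 2e-05). On large polysomes GTR1 was higher than in non-polysomal RNA by 0.48 ± 0.18 (limma, adjusted p = 0.016), 2 of the 5 were lower, against 37.8% of probe sets, and 2 were not called. 

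Other genes of the same pathways came from lists of known genes, most of which have no probe set named here. Of 9 sugar carriers other than SWEET genes, the tonoplast sugar transporters TMT1 and TMT2 were measured. TMT1 was lower by 0.74 ± 0.18 in light than in dark (limma, adjusted p = 0.00043) and TMT2 was higher by 0.37 ± 0.08 (limma, adjusted p = 9.1e-05). In this pooled comparison these 2 genes of the vacuolar membrane went in opposite directions. For 6pm minus 6am neither was called, with -0.38 for TMT1 and 0.16 for TMT2 (limma, adjusted p = 0.18 and 0.2), whereas 69% of all probe sets were. For 12am minus 6pm TMT1 was not called (0.31, limma, adjusted p = 0.3) and TMT2 was (-0.37, limma, adjusted p = 0.004), with 58.9% of probe sets called. The mean TMT1 value was 4.51, under the filter value of 5. Neither TMT1 nor TMT2 was called between large polysomal and non-polysomal RNA, whereas 80.1% of all probe sets were. Of 21 genes of iron uptake and homeostasis 3 were measured, the regulators BHLH101 and PYE and the peptide gene IMA1, and all 3 were higher in light, against 36.1% of probe sets. PYE was lower on large polysomes than in non-polysomal RNA, with a difference of -1.24 ± 0.11 (limma, adjusted p = 9.1e-12), as were 37.8% of probe sets. BHLH101 and IMA1 were not called there. Of 10 genes of sulfate assimilation 2 were measured, APS3, an ATP sulfurylase, and SIR, sulfite reductase, both higher on large polysomes than in non-polysomal RNA, where 80.1% of probe sets were called in either direction, and neither called in light against dark, where 72.6% were. No gene was measured of the lists of nitrogen assimilation, phosphate starvation, potassium channels and proton pumps, with 9, 12, 8 and 4 genes.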

How the data were processed

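Each of the 36 arrays gave 22810 probe sets. The authors deposited log2 expression per probe set, obtained by GCRMA with affy 1.42.3 in R 3.1, per the submitters' processing notes. GCRMA, as usually run, corrects background and makes the distributions of arrays alike, and its settings are not given in the sources used here, so differences between fractions are relative to the bulk of transcripts and low values are compressed (values ran from 2.15 to 15.55). After 64 control probe sets were left out, those reaching 5 on 3 or more arrays were kept, irrespective of group. This left 12635, of which 6824 name 1 gene, 263 several and 5548 none in the annotation used here, the platform's gene table updated through RefSeq (13436 of 13513 single names matched). Where probe sets shared a gene, the one with the highest mean stood for it. No array pair was identical (0 found). The number of arrays limits the precision, and the residual SD was 0.27 for SWEET11, 0.38 for SWEET16, 0.34 for SWEET17 and 0.38 for ZIP6, against a median of 0.26 over all probe sets.

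Linear models with 12 group means were fitted to all kept probe sets (lmFit and eBayes of limma 3.58.1, run in R 4.3.3). Adjusted p-values use limma's p over all 12635 probe sets by the Benjamini-Hochberg method, with a call under 0.05. A moderated F test covered differences among the 4 times. The fit was tested on simulated data with independent errors on every array, so that test cannot show what samples that deviate together do to p-values. Replicate numbers were checked as pairs: samples of 1 time with the same number deviated together in 36 of 36 pairs (correlation above 0.1, median 0.42). The number was therefore taken to mark 1 extract, and its consensus correlation was 0.355. Samples of the same fraction and number at other times also did so in 33 of 54 pairs (median 0.15). With another number 7 of 108 pairs did (median -0.05). The number thus also went with something shared across times, which the labels do not name. The pairing comes from this check, not from the labels. Without that block, p-values of levels are too small and those of loadings too large.

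Named genes are all members, since families held 3 or fewer. The members and lists were chosen with earlier results of these data known. Alternatives changed the scaling, filter, block, variance model, probe set choice, times, fractions and arrays left out. The comparisons of 6pm with 6am and of 12am with 12pm, and leaving out each array in turn, were added after seeing the data.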

Additional observations from a re-analysis of the deposited data

Results flagged for a closer look

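SWEET11 loading, the large polysomal minus non-polysomal log2 value, was above zero in all 3 pairs of samples at 6am and below zero in all 3 at 12pm, and the means differed by 0.505. The same held for 6am against 12am, where the means differed by 0.706. These differences between single times were not tested. The F test over the 4 times gave adjusted p = 0.32 in limma and 0.037 with fixed terms for the samples of a time and replicate number. With those fixed terms 4499 of the 12635 probe sets were called, against 1599 in the main fit.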

How the results depend on the processing

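Among the members' values in the 4 main comparisons (large polysomal minus non-polysomal, light minus dark level, level over the times, loading over the times), 194 values under alternatives other than left-out arrays kept direction and side of the threshold. Of the rest, 5 reversed, 9 lost a call and 8 gained one. Leaving out 1 array kept 575 values and gained 1 call, that of SWEET16 loading. The cause of a change was not tested unless stated. The spike-in shift turned the large polysomal minus non-polysomal differences to 2.47 for SWEET11, 1.49 for SWEET16, 1.78 for SWEET17 and 1.81 for ZIP6, by its construction, since it moves every probe set of an array alike. For small polysomal minus non-polysomal it gave 0.84 for SWEET11, 0.31 for SWEET16, 0.53 for SWEET17 and 0.66 for ZIP6, and for large minus small polysomal 1.18 for SWEET16, 1.26 for SWEET17 and 1.15 for ZIP6. Other signs it turned were light minus dark of SWEET11 (0.13), 6pm minus 12pm of ZIP6 (0.32), light minus dark loading of ZIP6 (-0.013), 6pm minus 6am of SWEET11 (0.325) and 12am minus 12pm of SWEET16 (-0.17). The SWEET11 range over the times, 0.78, was not called then, nor were 12pm minus 6am (-0.46), 6pm minus 12pm (0.78) and 6am minus 12am (0.39) of SWEET11, 6pm minus 12pm (0.92) and 12am minus 12pm (-0.61) of SWEET17 and 6am minus 12am of SWEET16 (-0.74), while 12am minus 6pm of SWEET16 (-0.80) and large minus small polysomal of SWEET11 (1.63) were. Calls under this shift numbered 12397 for large minus small polysomal, 4135 for 12pm minus 6am, 396 for 6pm minus 12pm, 1076 for 6am minus 12am, 6467 for level over the times, 7 for loading over the times and 4 for light minus dark loading, against 7010, 8429, 3865, 6135, 10940, 1599 and 691.

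With the replicate block (samples of 1 time and number), SWEET11 was called for large polysomal minus non-polysomal at -0.177, and SWEET16 was called for its loading range of 1.215, also with the number alone as a block. SWEET11 was called for its loading range of 0.71 with fixed terms. Calls for loading over the times were 4385 with the random block, 4499 with fixed terms and 2635 with the number as a block, and for light minus dark loading 2010, 2060 and 1116. The random block gave 1625 calls for 6pm minus 12pm. Apart from the calls given beside the results, the block changed no other call of the 4 genes. Averaging fractions first gave 729 calls for 6pm minus 12pm and 3898 for 6am minus 12am.

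With median centring SWEET11 was called for large polysomal minus non-polysomal (-0.27), and 6pm minus 12pm of ZIP6 was 0.004. Cyclic loess gave 0.016 for that ZIP6 difference and 0.025 for light minus dark loading of SWEET11, and quantile normalization gave -0.009 for large minus small polysomal of SWEET11, all near zero. Without the 6am arrays, large polysomal minus non-polysomal of SWEET11 was -0.305 (called), large minus small polysomal of SWEET11 -0.053, light minus dark -0.047 for SWEET11 and 0.11 for SWEET16, and light minus dark loading 0.29 for SWEET11 and 0.23 for SWEET16, with 64 calls for that loading, against 1948 without the 12am arrays.

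In the large polysomal fraction alone, light minus dark was -0.32 for SWEET11 and 0.21 for SWEET16, and the SWEET16 range was 0.51, none called. There 12pm minus 6am of SWEET16 was -0.077, 6am minus 12am 0.13 and 12am minus 12pm -0.055, and 6pm minus 12pm of ZIP6 was 0.33. In the small polysomal fraction alone light minus dark of SWEET16 was 0.43 and not called. In the non-polysomal fraction alone SWEET11 gave -0.26 for light minus dark, a range of 0.51 and 0.007 for 12am minus 6pm, ZIP6 gave 0.078 for 6pm minus 12pm and SWEET16 -0.026 for 12am minus 12pm. Calls in the large, small and non-polysomal fraction alone, with fewer samples, were 184, 599 and 1478 for 6pm minus 12pm and 4826, 4302 and 4466 for 12am minus 6pm, and for 6am minus 12am 2669 in the large and 2884 in the small.

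With 1 probe set per gene, fewer were tested, and calls in the order of the comparisons of fractions (large minus non-polysomal, small minus non-polysomal, large minus small) were 5456, 4649 and 3810, for light minus dark 4924, for the 4 steps from 6am on 4514, 1857, 3937 and 3190, for level and loading over the times 5849 and 904, and for light minus dark loading 389. Loading from the mean of both polysomal fractions gave 953 and 365 calls.

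Leaving out a replicate number or an array gave ranges of 3708 to 6195 calls for 6am minus 12am, 829 to 4081 for 6pm minus 12pm, 25 to 2211 for loading over the times and 17 to 1551 for light minus dark loading. The lowest count of each came without replicate 2, and without replicate 3 the loading counts were 234 and 26. For the members it gave -0.459 to -0.103 for light minus dark of SWEET11 and 0.261 to 0.671 of SWEET16, 0.602 to 1.204 for the SWEET16 level range, 0.872 to 1.78 for its loading range, -0.004 to 0.109 for large minus small polysomal of SWEET11, -0.138 to 0.146 for 12am minus 12pm of SWEET16, -0.515 to 0.017 for 12am minus 6pm of SWEET11, -0.132 to 0.115 for 6pm minus 12pm of ZIP6 and -0.182 to 0.008 for light minus dark loading of SWEET11. The filter on low values limits the set to 4 of 18 probe sets.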
